A study of Caenorhabditis elegans with 2 samples.

Results

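The regions described here are the 2009 places on the X chromosome of the nematode Caenorhabditis elegans where chromatin carrying the tagged protein ALY-2 was listed in or next to a protein-coding gene. They come from chromatin immunoprecipitation and sequencing (ChIP-seq) of whole third-stage (L3) larvae, in which DNA bound by the tagged protein is recovered and sequenced. A pooled list of peaks and background made by the authors from both biological replicates held 17335 regions, of which 2910 lay on X. A region belongs here when its summit, the base the authors marked as highest, lies inside a protein-coding gene or within 500 bp of the 5′ or 3′ end of one. By that rule 69.0% of the X regions qualified (95% Wilson interval 67.3 to 70.7%), and the other 901 were intergenic. The worms were of strain OP217, which carries the integrated array ddIs172 with eGFP-tagged aly-2 in the unc-119(ed3) mutant background. Both replicates share these alleles, and both sexes were pooled. The tagged protein comes from a transgene beside the gene's own copy, and whole animals mix all tissues. Both samples formed 1 group, and no untagged or input sample was analysed here. The comparisons are therefore between regions and between the 2 replicates, and no test between conditions was possible. The pooled list was made as relaxed input for a test of reproducibility, so it contains background regions as well as peaks. A shorter optimal list holds the 368 regions that passed the authors' reproducibility threshold, and these were the 368 highest of the pooled list.

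ALY-2 is 1 of the worm's ALY/REF proteins, a family of adaptors that join nascent mRNA in the nucleus and hand it to the export receptor. In other organisms such adaptors are recruited along transcribed genes together with the transcription and RNA-processing machinery. The X chromosome of the worm is the target of the dosage compensation complex, a condensin-containing complex that lowers X expression in hermaphrodites. That complex loads at recruitment sites on X that carry a short motif, called MEX, before it spreads along the chromosome. The core of that motif used below is GCGCAGGG.

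Sequences under 8 of the summits are shown because they hold the contrast the highest regions display. The first 4 carry the MEX core within 100 bp of the summit, and T27A8.7 lies among the highest regions without an exact match. The bet-2 and rpl-11.2 windows show a GC-rich 5′ end and an AT-rich 3′ end. Both go beyond the medians of the optimal 5′ and 3′ regions given below, so they are not typical of those ends. The him-4 window covers a tRNA gene. Each window runs 100 bp to either side of the summit on the plus strand of ce11, 5′ to 3′, read from the RefSeq copy of WBcel235. Capitals mark GCGCAGGG, or its reverse complement CCCTGCGC, in the first 4, and GGTTCGA, the core of the tRNA gene B box, in the last.
Y41G9A.17 intron, chrX:2997012-2997212: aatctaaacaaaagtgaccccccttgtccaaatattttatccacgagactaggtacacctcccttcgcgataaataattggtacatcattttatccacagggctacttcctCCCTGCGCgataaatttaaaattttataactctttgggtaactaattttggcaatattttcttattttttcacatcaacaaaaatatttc
mom-1 intron, chrX:6296481-6296681: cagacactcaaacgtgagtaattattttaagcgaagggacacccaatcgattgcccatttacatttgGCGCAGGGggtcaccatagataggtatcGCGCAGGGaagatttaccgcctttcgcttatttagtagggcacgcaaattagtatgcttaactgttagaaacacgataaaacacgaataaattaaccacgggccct
pks-1 exon, chrX:5429443-5429643: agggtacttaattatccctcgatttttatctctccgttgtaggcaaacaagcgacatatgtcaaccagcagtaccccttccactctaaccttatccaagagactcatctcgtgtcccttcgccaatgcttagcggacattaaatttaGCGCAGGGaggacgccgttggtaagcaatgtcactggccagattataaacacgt
F25E2.2 3′ end, chrX:806559-806759: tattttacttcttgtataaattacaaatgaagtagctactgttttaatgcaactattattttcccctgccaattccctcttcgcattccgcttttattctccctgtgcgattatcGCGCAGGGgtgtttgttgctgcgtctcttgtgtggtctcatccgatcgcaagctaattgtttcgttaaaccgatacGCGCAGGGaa
T27A8.7 3′ end, chrX:16056460-16056660: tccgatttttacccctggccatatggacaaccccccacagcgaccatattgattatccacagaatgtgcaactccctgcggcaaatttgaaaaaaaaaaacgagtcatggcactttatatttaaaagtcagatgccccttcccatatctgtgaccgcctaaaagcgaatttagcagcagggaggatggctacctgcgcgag
bet-2 5′ end, chrX:10568735-10568935: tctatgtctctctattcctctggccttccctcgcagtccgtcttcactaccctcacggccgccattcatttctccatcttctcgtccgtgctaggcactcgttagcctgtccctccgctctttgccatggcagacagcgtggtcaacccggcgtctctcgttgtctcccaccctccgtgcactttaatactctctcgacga
rpl-11.2 3′ end, chrX:2241471-2241671: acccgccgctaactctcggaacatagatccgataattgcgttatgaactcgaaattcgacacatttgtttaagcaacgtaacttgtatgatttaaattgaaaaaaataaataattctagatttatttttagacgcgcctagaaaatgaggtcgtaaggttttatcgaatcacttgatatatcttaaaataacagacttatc
him-4 intron, chrX:9743542-9743742: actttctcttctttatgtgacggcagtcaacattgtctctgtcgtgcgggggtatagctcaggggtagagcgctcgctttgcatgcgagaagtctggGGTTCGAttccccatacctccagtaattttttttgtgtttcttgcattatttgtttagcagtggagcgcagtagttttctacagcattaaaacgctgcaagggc

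Each summit was given 1 gene part, reading first 5′ ends (summits up to 500 bp away), then 3′ ends in the same way, then exons and last introns. On X, 412 regions lay at 5′ ends, 520 at 3′ ends, 275 in exons and 802 in introns. The 3′ end share was 25.9% (95% Wilson interval 24.0 to 27.8%), while 3′ end windows made up 16.2% of the genic bases of X. Regions lay most densely there, at 272 per Mb of 3′ end sequence against 176 per Mb in introns, 155 at 5′ ends and 104 in exons. The 5′ end share was 20.5% (18.8 to 22.3%), against 22.6% of the genic bases. Introns held 39.9% of the regions and 38.7% of the bases, and exons held 13.7% of the regions and 22.5% of the bases. Wilson intervals here cover counting over regions only, since read depth is unknown.

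The 11923 genic regions on the autosomes differed from those on X in their 5′ end, 3′ end and intron shares. At 5′ ends lay 28.8% of the autosomal regions (28.03 to 29.65%), at 213 per Mb of 5′ end sequence. At 3′ ends lay 22.4% (21.7 to 23.2%), at 258 per Mb. Introns held 35.1% (34.2 to 35.9%), against 39.9% (37.8 to 42.1%) on X. They made up 36.0% of the autosomal genic bases, against 38.7% on X. The intervals for these shares did not overlap those of X, and the exon shares were both 13.7% with gene ends read before bodies. The end shares on X and on the autosomes depend on which end is read first, since a summit near both kinds of end counts for the first one read. Such summits made up 27.4% of the 5′ end regions on X and 42.4% on the autosomes. The intron shares were the same with either end first. With the 3′ end read before the 5′ end, the 5′ end share was 14.9% on X and 16.6% on autosomes, and the 3′ end share was 31.5% on X and 34.6% on autosomes, which reverses the order of the 3′ end shares. With gene bodies read first, the exon shares differed, at 26.1% on X and 32.1% on autosomes. In that reading 3′ ends held 14.6% on X and 9.09% on autosomes, 5′ ends 11.2% and 14.0%, and introns 48.0% and 44.8%. Genic sequence made up 66.5% of X and 76.1% of the autosomes, and genic regions lay at 170 per Mb of it on X and 190 per Mb on the autosomes.

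**Figure D1:**
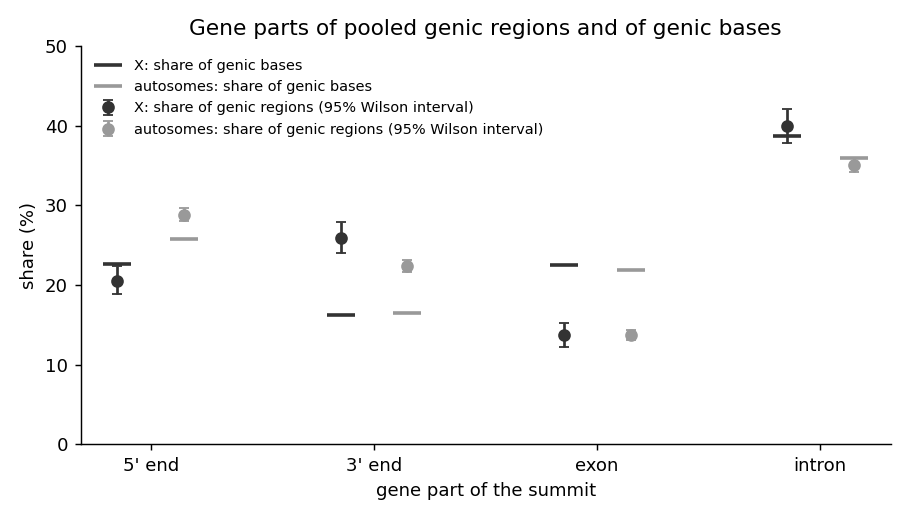
Points give the share (%) of pooled genic regions whose summit lies in each gene part, on X (n = 2009) and on the autosomes (n = 11923), with 95% Wilson intervals, and bars give the share of genic bases in that part. On X the 3′ end share of 25.9% stands above its 16.2% of bases, and the 5′ end share of 20.5% stands below its 22.6%.

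The height of a region is the value in the signal column of the authors' lists, and it is used only within a list. Heights on X ran from 14.2 to 159.6 with a median of 17.98 and quartiles of 15.8 and 21.7, so most regions sat close to the lower limit of the list. The median was 18.3 for autosomal genic regions and 17.5 for X intergenic regions. By gene part the medians on X were 18.5 at 5′ ends, 18.2 at 3′ ends, 17.3 in exons and 17.8 in introns, but the highest values were spread unevenly. The highest region of each gene part reached 159.6 in introns, 136.3 in exons, 136.0 at 3′ ends and 71.0 at 5′ ends.

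Of the 2009 regions, 29 were in the optimal list, which is 1.44% (1.01 to 2.07%) against 2.12% of the whole pooled list. The share was 2.43% (2.17 to 2.72%) for autosomal genic regions and 2.33% (1.53 to 3.54%) for X intergenic regions. The 29 regions lay at 27 genes, since the ribosomal protein gene rpl-11.2 and the Tribbles-like kinase gene nipi-3 had 1 at each end. Their heights ran from 43.8 at ZK813.5 to 159.6, with a median of 54.2. Just outside the optimal list came the 5′ region of mdl-1, a Mad-like transcription factor gene, at 43.5. The heights chose these regions, so they are a description only.

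By gene part, 16 of the 29 were at 3′ ends, 6 at 5′ ends, 4 in exons and 3 in introns. This was 3.08% of the 3′ end regions (1.90 to 4.94%) and 1.46% of the 5′ end regions (0.669 to 3.14%). On the autosomes 139 of 290 optimal genic regions were at 5′ ends and 100 at 3′ ends. This was 4.04% of the autosomal 5′ end regions (3.43 to 4.75%) and 3.74% of the autosomal 3′ end regions (3.09 to 4.53%). The 3′ end share on X was thus not above that of the autosomes, and the 5′ end share on X was lower. Each autosome taken alone had more optimal regions at 5′ than at 3′ ends, the closest being chromosome IV with 27 and 24 and chromosome V with 20 and 17. That contrast also depended on the order of reading: with the 3′ end first, X had 2 at 5′ ends and 20 at 3′ ends and the autosomes had 59 and 180. With gene bodies read first it was 6 and 15 on X and 93 and 47 on the autosomes.

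**Figure D2:**
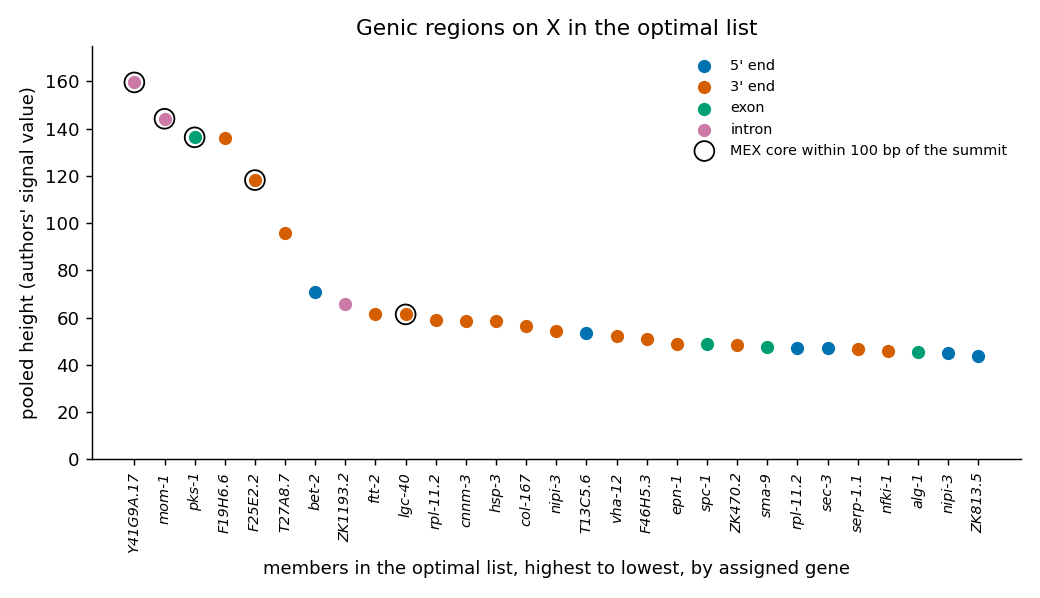
Pooled height (the authors' signal value) of the 29 genic X regions in the optimal list, ordered from highest to lowest and named by assigned gene. Colour gives the gene part and black rings mark a MEX core within 100 bp of the summit; 6 regions stand between 95.9 and 159.6, and the other 23 lie between 43.8 and 71.0.

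The 6 highest regions stood apart from the rest, with a step of 24.9 between the sixth and the seventh. They were 2 introns, 1 exon and 3 regions at 3′ ends, and none was at a 5′ end. The highest lay in an intron of Y41G9A.17 (chrX:2996914-2997309, pooled height 159.6, pooled rank 2), with heights of 74.2 in replicate 1 and 83.1 in replicate 2. Second was an intron of mom-1, whose product is the Porcupine acyltransferase needed for Wnt secretion, with a pooled height of 144.2 (rank 6) and replicate heights of 52.5 and 95.8. Both ranked in the first 20 of each replicate's own list.

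Next was a pks-1 exon, in a gene for a polyketide synthase (136.3, rank 9), with 51.0 and 83.8 in replicates 1 and 2. The region 96 bp beyond the 3′ end of F19H6.6 had a height of 136.0 (rank 10), with 62.5 and 74.2. At F25E2.2 the summit lay 332 bp beyond the 3′ end (118.2, rank 18), with 50.7 and 68.6. These 3 were within the first 21 regions of each replicate's own list. T27A8.7 was the sixth, 150 bp beyond the 3′ end (95.9, rank 28), and its heights of 34.9 and 65.2 gave it rank 83 in replicate 1 and 25 in replicate 2.

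The MEX core was searched on both strands. Within 50 bp of the summit it was found in 7 of the 2009 regions (0.348%, 0.169 to 0.717%), in 6 of 901 X intergenic regions (0.666%) and in 2 of 11923 autosomal genic regions (0.0168%). Over all pooled regions the share was 15 of 17335 (0.0865%). The 7 were both listed regions in the Y41G9A.17 intron, mom-1, F25E2.2, lgc-40, lin-14 and nhr-173. Extending the window to 100 bp added pks-1 and a 3′ region of the gene WBGene00020828, giving 9 of 2009 (0.448%) against 8 autosomal genic regions (0.0671%). Over the whole listed region F19H6.6, the second region at F25E2.2 and the fibroblast growth factor gene egl-17 were added, giving 12 (0.597%) against 15 (0.126%).

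Matches to the core were concentrated among the highest regions. With the 100 bp window it was present in 4 of the 8 genic X regions of pooled rank 1 to 100, in 1 of 21 of rank 101 to 368, in 0 of 59 of rank 369 to 1000, in 2 of 464 of rank 1001 to 5000, and in 2 of 1457 below. Intergenic X regions had it in 6 of 10 and 1 of 11 in the first 2 of these rank groups, and at rank 1 to 100 the intervals overlap widely (21.5 to 78.5% for genic and 31.3 to 83.2% for intergenic X regions). Autosomal genic regions of rank 1 to 100 had it in 1 of 77. As the windows above show, mom-1 has plus-strand matches starting at -33 and -5 bp from the summit, and F25E2.2 has them at 15 and 91 bp. In Y41G9A.17 the match is on the minus strand 11 bp from the summit, and in pks-1 it starts at 47 bp.

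Most copies of the core lay outside listed regions. Chromosome X has 81 copies of the core (4.57 per Mb), of which 24 (29.6%) fell in a pooled region and 13 in a genic one. The autosomes have 233 copies (2.82 per Mb), of which 15 (6.44%) fell in a pooled region. Low regions could also carry it: the lin-14 intron region had a height of 20.3 (pooled rank 5895), with 8.83 in replicate 1 and 8.09 in replicate 2. The nhr-173 region had a height of 16.3 (rank 11933) and was listed in replicate 1 only, at 10.6. The second Y41G9A.17 region (height 25.2) has its own match but overlaps the same replicate regions as the highest one, so its replicate values are not independent. Likewise the second F25E2.2 region (39.4) overlaps the first and contains the same matches.

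**Figure D3:**
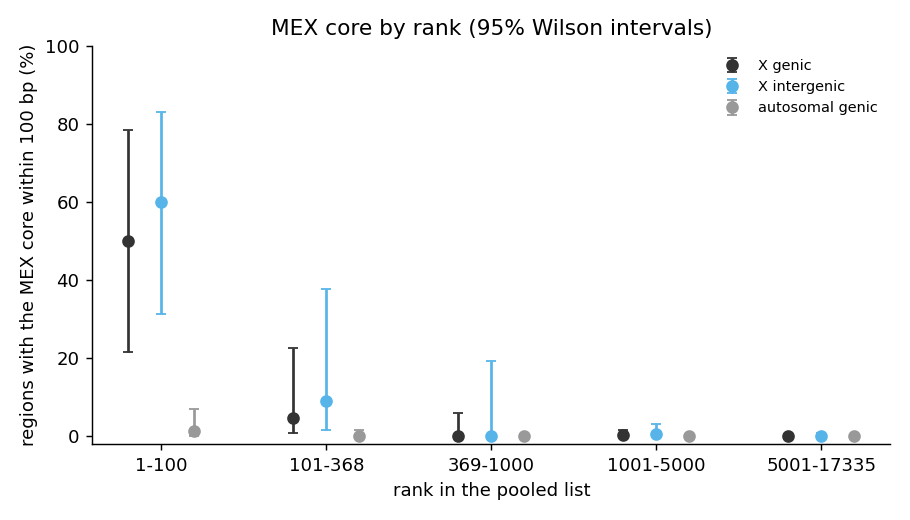
Share (%) of regions with the MEX core GCGCAGGG within 100 bp of the summit, by rank in the pooled list, for genic X, intergenic X and autosomal genic regions, with 95% Wilson intervals. At rank 1 to 100 it is 4 of 8 genic X and 6 of 10 intergenic X regions, and at rank 369 to 1000 it is 0 in every group.

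At 3′ ends, the optimal regions below the 6 highest lay at genes of several kinds. Beside ftt-2, a 14-3-3 protein gene, the summit was 83 bp beyond the 3′ end (height 61.6), with 31.0 in replicate 1 and 35.7 in replicate 2. The ligand-gated ion channel gene lgc-40 had 61.4, with 34.8 and 26.6, and was the only 1 of the 23 lower optimal regions with a MEX core within 100 bp. At rpl-11.2, for a protein of the large ribosomal subunit, the summit was 167 bp beyond the end (59.2), with 32.7 and 23.0. These 3 were listed high in both replicates, at rank 650 or better.

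Other 3′ end regions were at hsp-3, an endoplasmic reticulum chaperone of the BiP type (58.4, with 23.9 and 35.8), and vha-12, a vacuolar ATPase subunit (52.2, with 23.0 and 33.6). At cnnm-3, a gene of the CNNM magnesium transporter family, the region (58.5, with 24.9 and 30.5) had its summit 26 bp from a tRNA gene. Not every 3′ end region was even between replicates. The collagen gene col-167 (56.3) had 38.1 in replicate 1, rank 65, but 12.5 in replicate 2, rank 5562. The nipi-3 3′ region (54.2) had 45.3 and rank 33 in replicate 1, and 10.6 and rank 9523 in replicate 2.

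In the opposite sense, ZK470.2 (48.2) had 13.2 in replicate 1, rank 4647, and 35.4 in replicate 2, rank 153. The serp-1.1 region (46.9) had 14.2, rank 3489, and 35.6, rank 147. These 4 regions were thus high in 1 replicate and low in the other. The remaining 3′ end regions of the optimal list were at F46H5.3 (50.8, with 19.2 and 38.4), epn-1, an epsin gene of endocytosis (49.0, with 23.8 and 27.3), and nfki-1, of the IκB family (45.8, with 19.2 and 25.97). Just below the optimal list came the 3′ regions of the protein disulfide isomerase gene pdi-6 (43.3, with 11.6 and 31.2) and of spc-1 (42.5, with 29.9986 and 11.4). The 3′ region of ZK721.3 (41.7) had 35.2 in replicate 1 and no listed region in replicate 2.

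The 6 optimal 5′ regions began with bet-2, a bromodomain protein gene, with the summit at -438 bp from the 5′ end, where negative values are upstream (71.0), and heights of 26.3 and 41.3 in replicates 1 and 2. T13C5.6 had its summit at -248 bp (53.5, with 26.3 and 25.5), inside the noncoding gene C14F11.14. The 5′ region of rpl-11.2 lay at -411 bp (47.3, with 26.2 and 16.9), 86 bp from the lincRNA gene linc-78. The others were at sec-3, an exocyst subunit gene (47.2, with 27.4 and 21.1), nipi-3 (45.1, with 24.8 and 21.9) and ZK813.5 (43.8, with 25.9 and 23.4). All 6 summits were upstream of its gene rather than inside it, and 4 of the 6 were also within 500 bp of the 3′ end of a neighbour.

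Base composition differed between the ends. The median GC content of the 101 bp centred on the summit was 50.5% for the 6 optimal 5′ regions and 33.2% for the 16 optimal 3′ regions. Of those 6, 4 were nearer to the 3′ end of a neighbour. The central 101 bp of the bet-2 window printed above had 60.4% GC and those of the rpl-11.2 3′ window 26.7%. Over all genic X regions the mean, taken here instead of the median, was 34.8% ± 9.78 (SD, n = 412) at 5′ ends. At 3′ ends it was 31.4% ± 7.59 (SD, n = 520). Exon regions on X had a higher mean than either end, 40.1% ± 7.47 (SD, n = 275), and intron regions had 31.4% ± 7.92 (SD, n = 802). The autosomal means were 34.5% ± 9.08 (SD, n = 3438) at 5′ ends and 32.9% ± 8.08 (SD, n = 2673) at 3′ ends. The part of base composition in region height was not tested.

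Summits at 5′ ends fell upstream of the gene in 246 of 412 cases (59.7%, 54.9 to 64.3%), with a median offset of -103.5 bp. On autosomes 57.7% (56.1 to 59.4%) were upstream, with a median of -58 bp, and the intervals overlap. At 3′ ends 366 of 520 summits (70.4%, 66.3 to 74.1%) lay beyond the gene end, with a median of 134 bp, against 67.0% (65.2 to 68.8%) and 106 bp on autosomes. All 16 optimal 3′ summits (80.6 to 100%) and all 6 optimal 5′ summits (61.0 to 100%) on X lay outside the gene they were assigned to. On autosomes 73 of 100 (63.6 to 80.7%) and 96 of 139 (61.0 to 76.1%) did. The intervals of X and autosomes overlap at 5′ ends and, narrowly, at 3′ ends.

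**Figure D4:**
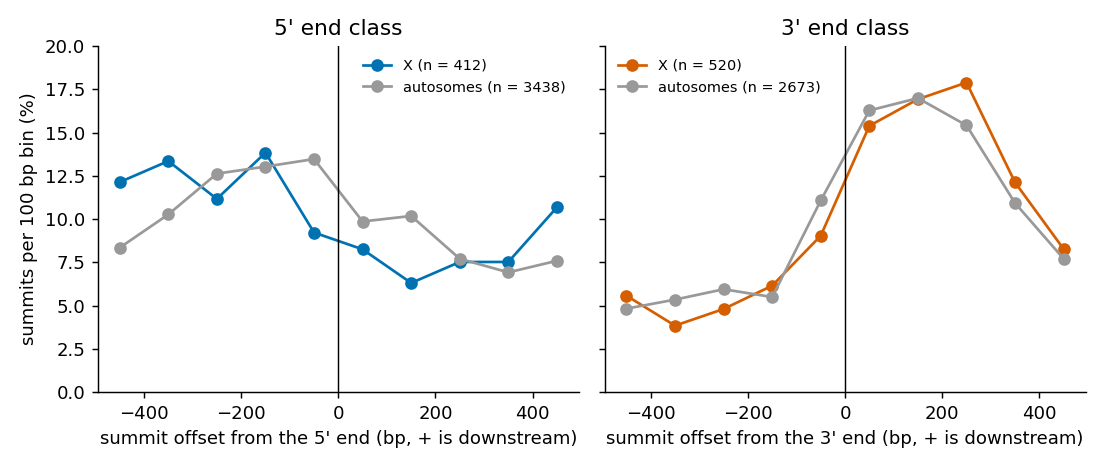
Share of summits (%) in 100 bp bins of distance from the nearest 5′ end (left) and 3′ end (right), with positive values downstream in the direction of the gene, on X (412 and 520 regions) and on the autosomes (3438 and 2673). At 3′ ends both curves peak downstream of the gene end, where 70.4% of the X summits lie.

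Fewer regions on X than on the autosomes had a second gene end nearby. Of the 5′ end regions 113 of 412 (27.4%, 23.3 to 31.9%) were also within 500 bp of a 3′ end, against 42.4% (40.7 to 44.0%) on autosomes. More than 1 5′ end lay within 500 bp of 17 (4.13%) on X and of 11.2% on autosomes. Of the 3′ end regions on X 411 of 520 (79.0%, 75.3 to 82.3%) had a single 3′ end within 500 bp, against 62.0% (60.2 to 63.8%) on autosomes. Of the 16 optimal 3′ regions on X 13 had a single 3′ end within that distance. Genes were also sparser on X as a whole, with 2731 protein-coding genes in 17718942 bp, against 3281 in 17493829 bp on chromosome IV. The same shares over all gene ends were not counted, and the part of gene density in these differences was not tested.

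Exon regions in the optimal list, apart from pks-1, were at spc-1, the alpha spectrin gene (48.8, with 18.4 and 28.6), sma-9, a zinc finger protein of the Schnurri type (47.6, with 25.3 and 20.9), and alg-1, an Argonaute of the microRNA pathway (45.3, with 25.5 and 19.7). Beside the Y41G9A.17 and mom-1 introns, ZK1193.2 had an optimal intron region (65.6, with 26.5 and 43.8), 149 bp from a tRNA gene. These 4 regions were listed in both replicates, at rank 1102 or better. Next among introns came him-4, which encodes the extracellular matrix protein hemicentin (40.7, rank 496). Its summit was inside a tRNA gene, and its height was 9.18 in replicate 1, rank 15634, and 35.98 in replicate 2, rank 140. Lower still were an intron region of F46H5.3 (39.3, with 20.1 and 20.3) and, among exons, one of zfp-3 (38.5, with 27.04 and 19.4).

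Intron regions were numerous but low, with 3 of 802 in the optimal list (0.374%, 0.127 to 1.09%). They lay in 470 genes, and the median length of these genes was 6128 bp, against 2548 bp for all protein-coding genes of X. Their summits were a median of 286.5 bp from the nearest exon edge. Exon regions lay in 207 genes, with a median length of 5598 bp. By pooled rank, introns held 3 of 8 regions at rank 1 to 100, 0 of 21 at rank 101 to 368, 9 of 59 at rank 369 to 1000, 39.9% of 464 at rank 1001 to 5000 and 41.5% of the 1457 below. The 3′ ends held 3 of 8, 13 of 21, 24 of 59, 29.7% and 23.5% in the same groups, so neither share moved in 1 direction from the top of the list.

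A region was counted as found in a replicate when its summit lay in a region of that replicate's own relaxed list. Of the 2009 regions 759 were found in both replicates (37.8%, 35.7 to 39.9%), against 40.5% of the whole pooled list. Autosomal genic regions had 42.7% (41.8 to 43.6%) and X intergenic regions 33.3% (30.3 to 36.4%). Another 638 were found in replicate 1 only, 510 in replicate 2 only and 102 (5.08%) in neither. The replicates also made the pooled list, so these shares do not measure independent support.

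Support in both replicates depended strongly on height. It was 29 of 29 in the optimal list, which was itself chosen on the replicates, 50 of 59 at rank 369 to 1000, 317 of 464 at rank 1001 to 5000, and 363 of 1457 (24.9%) below. By gene part it was 42.7% at 3′ ends (38.5 to 47.0%), 36.2% at 5′ ends, 36.4% in exons and 35.9% in introns. Over the 759 regions found in both, Spearman's rho between replicate heights was 0.23 and Pearson's r was 0.68. Without the 29 optimal regions they were 0.15 and 0.42, so both were lower among the remaining 730 regions. Within gene parts rho was 0.35 at 3′ ends (222 regions), 0.29 at 5′ ends (149), 0.15 in exons (100) and 0.07 in introns (288). Pearson's r gave another order, with 0.76 in introns, 0.69 in exons, 0.61 at 3′ ends and 0.51 at 5′ ends. These are descriptions over regions that share 2 libraries and were chosen in the pooled list.

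Among the 29 optimal regions, 12 were within the 368 highest regions of both replicates, 11 of replicate 1 only, 5 of replicate 2 only and 1 of neither. In the 5′-first reading, all 5′ regions apart from bet-2 were in the first 368 of replicate 1 but not of replicate 2. Taken from each replicate's list alone, the 368 highest regions held 35 genic X regions in either replicate. In replicate 1 these were 19 at 3′ ends and 6 at 5′ ends, and in replicate 2 they were 22 and 6. The autosomal counts were 103 and 110 in replicate 1, and 95 and 122 in replicate 2, so the order of the 2 ends in the 5′-first reading was the same in either list.

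**Figure D5:**
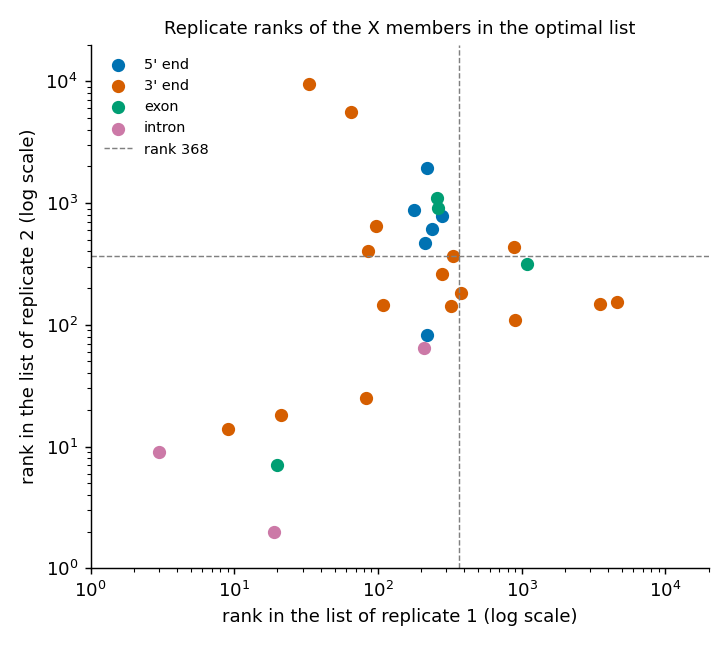
Rank of each of the 29 optimal genic X regions in the list of replicate 1 (horizontal) and of replicate 2 (vertical), both on log scales, coloured by gene part, with dashed lines at rank 368. The 12 regions in the lower left are within the first 368 of both lists, and the 3′ region of nipi-3 is farthest from the diagonal, at rank 33 and 9523.

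The 2009 regions were assigned to 1134 of the 2731 protein-coding genes on X (41.5%). Of these genes 696 had 1 region, 258 had 2 and 180 had 3 or more, and those 180 accounted for 797 regions. Longer genes more often had a region: 23.5% of genes under 2000 bp had a region, against 86.8% of the 151 genes over 10000 bp. The muscleblind splicing factor gene mbl-1 had the most, with 18 regions over 31695 bp, 14 of them in introns. The heterochronic gene lin-14 had 17 over 20312 bp, the nuclear hormone receptor gene daf-12 had 12 over 30968 bp, and scd-1 had 11 over 21903 bp. The highest regions of these 4 genes reached 34.1, 33.7, 36.1 and 30.1, below the optimal list, which held 1.44% of all genic X regions. Next were spc-1, with 10 over 9641 bp, 1 of them optimal, and cab-1, also with 10, over 13247 bp.

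Gene families were counted by name. Ribosomal protein genes on X number 2, rpl-11.2 and rpl-25.1, and both had a region, with 2 of their 3 regions optimal. The rpl-25.1 summit lay 55 bp inside the 5′ end (41.5, with 19.5 in replicate 1 and 19.98 in replicate 2). Of 23 nuclear hormone receptor genes 18 had a region (46 regions, none optimal), the highest in an intron of nhr-3 (33.4, with 12.5 and 9.09), followed by the 3′ end of nhr-14 (30.1, with 22.02 and 19.5). The channel, receptor and innexin list had 32 of 63 genes, and 1 optimal region, at lgc-40. Collagens had 13 of 27 and 1 optimal, at col-167, and homeobox genes had 12 of 25 and none optimal, with the highest in an intron of the POU gene ceh-18 (29.2, with 15.7 and 15.3). Against 41.5% of all X genes, the neuropeptide list was lower, with 10 of 37. It was led by nlp-76 (34.9), with 22.2 in replicate 1 and 6.81 in replicate 2. The median gene length of this list was 820 bp, and 23.5% of all X genes under 2000 bp had a region. The nuclear hormone receptor list was higher, at 78.3%, with a median gene length of 4483 bp. Of all X genes from 2000 to 5000 bp, 44.3% had a region. Over all genic X regions 1.44% were optimal, so lists of this size would hold few or none at that share. Gene length went with having a region over all X genes, and its part in these counts was not tested.

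The remaining gene lists had few genes on X. Of 5 vitellogenin genes, which encode yolk proteins, only vit-2 had a region (17.1), at 11.8 in replicate 2 and absent from the list of replicate 1. Of 8 muscle genes 3 had one, among them the actin gene act-4 (22.7), listed in replicate 2 only at 18.1, and the pharyngeal myosin gene myo-2 (21.2), listed in replicate 1 only at 19.3. The translation elongation factor gene eef-1A.2, 1 of 3 translation factor genes on X and the only 1 with a region, reached 34.9, with 12.7 and 20.05. From the list of genes of dosage compensation and the X signal, 2 of 6 had a region. The dosage compensation gene sdc-2 had its highest at -387 bp from the 5′ end (28.8, with 15.5 and 14.8), and the RNA-binding X signal gene fox-1 had 24.5, with 15.3 and 10.6. No gene of the mRNA export list lies on X.

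Noncoding neighbours were counted within 500 bp of the summit. Genes for tRNAs were near 66 genic X regions (3.29%, 2.59 to 4.16%), 52 X intergenic regions (5.77%) and 112 autosomal genic regions (0.939%). X holds 276 of the 634 annotated tRNA genes, and the part of that number in the difference was not tested. The median height of the 66 was 21.8, above the 17.98 of all genic X regions. Of the 66, 2 were optimal (at ZK1193.2 and cnnm-3), against 1.44% of all genic X regions. Regions near tRNA genes were also higher elsewhere. Their median was 20.96 against 17.5 for all X intergenic regions, and 20.3 against 18.3 for all autosomal genic regions. Optimal were 3 of the 52 X intergenic and 3 of the 112 autosomal genic regions near tRNA genes, against 2.33% and 2.43% of all such regions. The B box core GGTTCGA was within 50 bp of the summit in 22 regions (1.10%, 0.724 to 1.65%), against 0.738% of autosomal genic and 0.790% of all pooled regions, and the him-4 window above shows 1 such match at -3 bp from the summit. Genes for snoRNAs were near 6 genic X regions (0.299%), 8 X intergenic regions (0.888%) and 153 autosomal genic regions (1.28%). X holds 33 of 346 snoRNA genes. MicroRNA genes were near 11 regions, the highest inside cel-mir-54 in an intron of F09A5.3 (32.4, with 9.46 and 19.1).

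The other letters searched were no more frequent in the X regions. GAGAGAGA was within 50 bp in 15 regions (0.747%, 0.453 to 1.23%), against 0.956% of autosomal genic and 1.12% of all pooled regions. GCGCGC was in 17 (0.846%, 0.529 to 1.35%), against 1.24% and 1.11%, and 9 of the 17 were at 5′ ends.

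Along X the regions were spread widely. Full Mb intervals held between 61 and 139 of them and between 0 and 4 optimal ones. Merging overlaps left 1869 separate places, a median of 4480 bp apart, which covered 4.36% of the chromosome. At the edge of the selection, regions of clc-1 (500 bp from the 3′ end, height 16.1), Y9C12A.1 (498 bp, 16.4) and C38C5.1 (497 bp, 16.2) were the last inside. Those of sto-5 (502 bp, 20.1), lmp-1 (503 bp, 19.6) and nlp-66 (503 bp, 14.7) were the first outside. The tagged gene aly-2 lies on chromosome IV (9147468 to 9148579), where its highest region had a height of 39.6 and rank 539, and the labels do not say where the transgene is inserted.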

How the data were processed

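ChIP-seq of ALY-2 was performed on 2 biological replicates of whole L3 larvae, with library fragments of 150 to 350 bp per the labels. Per replicate and pooled, the authors deposited region lists for builds ce11 and ce10. Heights are the signal values the authors deposited, on a scale that no source used here explains, and were used within a list only. The −log10 q-values deposited by the authors were not used for any result. The aligner and the peak caller are also not given in the sources used here. Pooled lists were made from both replicates' alignments and 1 further file, per the records deposited with them. No read counts were used, so depth is unknown, and 95% Wilson intervals cover counting over regions only.

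Summits on ce11 were placed on protein-coding genes of Ensembl release 115, each with 1 of 4 gene parts. Genes were assigned by the nearest end, or by the body holding the summit, the shortest if several. Letters were searched on both strands within 50 bp of the summit, a window of 101 bp, and also within 100 bp. GC content was taken over the 101 bp. The 11 gene lists were defined by gene name. Genes named were the 20 highest members, the 5 highest of each gene part, the 5 genes with most members, up to 4 per gene list, and those at the limit of the window. The remaining optimal members, cab-1, carriers of the MEX core and the highest regions by noncoding type were named knowing their values. The members, lists and comparisons were chosen with earlier results of these data known. No test was made, because there is 1 group and regions are not replicates. Alternatives changed the window, the order of gene parts, the overlap rule, the build, or left out a replicate by using the other's list. Lists on ce10 were compared by chromosome only. Calculations used Python 3.11.15, pandas 2.3.3, numpy 2.4.6 and scipy 1.17.1, and figures matplotlib 3.10.9. The classification was tested on simulated data.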

Additional observations from a re-analysis of the deposited data

How the results depend on the processing

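With a window of 250 bp at gene ends, 61.8% of X regions were genic, of which 10.6% were at 5′ ends, 18.8% at 3′ ends, 19.3% in exons and 51.4% in introns. With 1000 bp, 77.7% were genic, with 36.6% at 5′ ends, 8.05% in exons and 27.8% in introns. With the 3′ end read before the 5′ end, 14.9% were at 5′ ends and 31.5% at 3′ ends. With gene bodies read first, the shares were 11.2% at 5′ ends, 14.6% at 3′ ends, 26.1% in exons and 48.0% in introns. The share found in both replicates was 21.9% when each replicate was limited to as many of its highest regions as the pooled list holds. The median height was 21.6 over members found in both replicates.

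Leaving out each replicate in turn, by taking the other's own list, gave 3157 to 3702 members, 67.4 to 71.2% of X regions genic, 21.98 to 23.01% at 3′ ends, 14.1 to 18.2% in exons, a median height of 9.23 to 9.36 and the MEX core in 0.162 to 0.190%. Those lists are longer and were scored separately, so heights are not comparable with the pooled list. The search of the whole listed region for the core was added after seeing the data and gave 0.597%. No paired analysis was possible because there is 1 group and no result comes from a test. Unknown depth, the absence of a control sample here and the relaxed lists limit how firmly a low region can be read as bound, and 2 replicates give no interval between animals.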
